A study of Mus musculus with 2 samples.

Results

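The semaphorins, ephrins, Slits and netrins, taken with their plexin, Eph, Robo and netrin receptors, were examined in the embryonic mouse pituitary with and without Dyrk2, a protein kinase. The rule that picks the members reads gene symbols and no measured value: it takes protein-coding genes of the semaphorin, plexin, ephrin, Eph, Slit and Robo families with Ntn1, Ntn3, Ntn4, Dcc, Neo1 and the Unc5 genes. This gave 66 genes of the 55401 in the deposited tables, of which 34 encode ligands and 32 receptors. The samples were total RNA of pituitaries at embryonic day E12.5, 1 library labelled WT and 1 labelled Dyrk2-KO, which the design text writes as Dyrk2-/-. The sources used here do not give the strain, the sex, how many embryos entered a library or how the Dyrk2 allele was made. With 1 library per genotype there is no replicate check of any difference, and none was tested. The 95% intervals cover counting error only, and every difference is one between these libraries.

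These families carry signals by which cells attract, repel or separate from one another. Semaphorins signal through plexins, the secreted class 3 members mostly with a neuropilin as co-receptor. Ephrins and Eph receptors both sit in cell membranes and signal in both directions at cell contacts, Slits act through Robo receptors, and netrins through Dcc, Neo1 and Unc5 receptors. They are best known from growing axons, and the same genes pattern vessels, with ephrin-B2 on arteries and EphB4 on veins, and set tissue borders.

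Levels are given as FPKM, which counts fragments per kilobase of exon relative to the library total, so they can be compared between genes. The values rest on about 20045000 counted fragments in the wild-type and 20116000 in the knockout library. Dyrk2 measured 11.5 FPKM in the wild-type and 1.93 FPKM in the knockout library, which checks the labels. The pituitary determinants Pitx1 and Lhx3 were abundant in both, at 250.4 and 227.1 FPKM and at 73.0 and 85.9 FPKM. Xist, expressed by females, measured 74.98 and 14.8 FPKM and the Y-linked Ddx3y 5.83 and 14.95 FPKM, so the mixture of sexes differed between the libraries and cannot be told apart from genotype.

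Most guidance genes stood at similar levels in both libraries. A gene was compared when it reached 1 FPKM in at least 1 library, which 57 of the 66 members did, beside 14000 of all genes and 12105 protein-coding genes. Size was judged on the log2 ratio, knockout over wild type, of values to which 0.5 FPKM had been added. By that measure 51 of the 57 lay within 1.5-fold, 4 were lower in the knockout library by at least 1.5-fold and 2 were higher by as much. The corresponding shares were 4.56% lower and 2.06% higher over all genes compared, and 2.95% and 1.08% over protein-coding genes. The median log2 ratio of the 57 was 0.005, against -0.02 over all genes. All 66 members together summed to 724.7 FPKM in the wild-type and 735.7 FPKM in the knockout library. The 10 members with the highest mean of both libraries made up 55.3% of the wild-type sum, and their plain ratios lay between 0.850 and 1.24. Efnb1, at 27.3 FPKM in the wild-type and 19.0 FPKM in the knockout library, is not among these 10, although its wild-type level exceeds that of some of them.

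**Figure D1:**
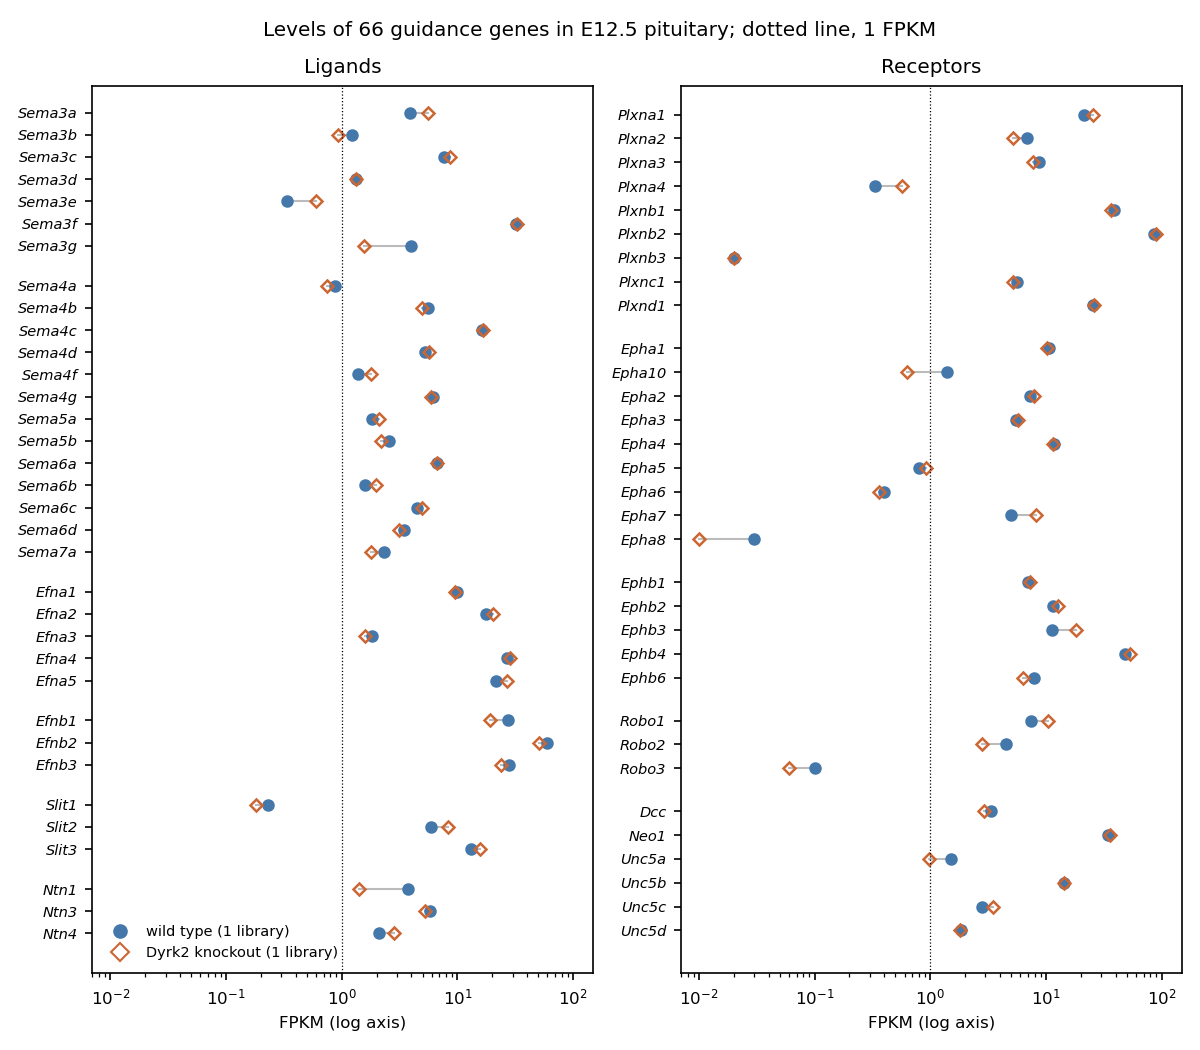
FPKM (log axis) of the 66 guidance genes, ligands on the left and receptors on the right, in the wild-type library (filled circles) and the Dyrk2 knockout library (open diamonds), with 1 library each and a dotted line at 1 FPKM. Most pairs of symbols lie close together, and among genes that reach 1 FPKM the widest gaps are those of Ntn1, Sema3g and Epha10.

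The members' ratios were spread more widely than those of protein-coding genes in general. The quartiles of the 57 log2 ratios were -0.17 and 0.16, and those of the 12105 protein-coding genes -0.14 and 0.09. The tenth and ninetieth percentiles were -0.39 and 0.33 for the members and -0.30 and 0.19 for protein-coding genes. The counting interval of the ratio lay wholly above 1 for 17 members and wholly below 1 for 16, and held 1 for 24. It lay above 1 for 17.7% of all genes compared and below 1 for 22.3%, or 19.4% and 23.7% of protein-coding genes. The members are long genes, with a median exon length of 7002 bases against 4538 for protein-coding genes. They had a median of 989 wild-type fragments against 841. The part of fragment number in these counts was not tested.

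**Figure D2:**
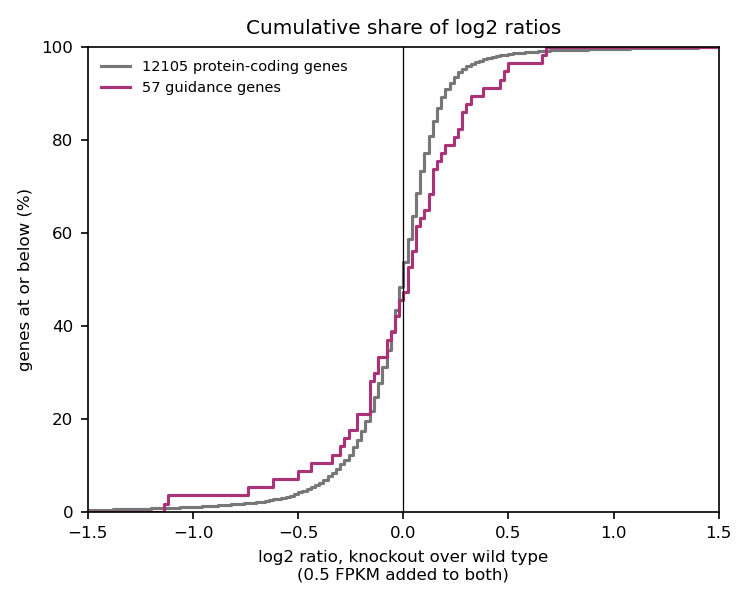
Cumulative percentage of genes (vertical axis) at or below each log2 ratio of knockout over wild type with 0.5 FPKM added (horizontal axis), for the 57 guidance genes above the filter and the 12105 protein-coding genes above it. The curve of the guidance genes lies above the other from -1.14 to -0.08 and below it from -0.06 to 0.66, with a ninetieth percentile of 0.33 against 0.19.

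The 4 lower genes were Ntn1, Sema3g, Epha10 and Robo2, and together they summed to 13.7 FPKM in the wild-type and 6.37 FPKM in the knockout library. In bulk tissue, fewer cells that express a gene and less RNA per cell cannot be told apart.

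Ntn1 encodes netrin-1, the ligand shared by Dcc, Neo1 and the Unc5 receptors. Its gene (ENSMUSG00000020902) occupies bases 68209364 to 68400823 of chromosome 11 (GRCm38, minus strand). With Dyrk2 the level of Ntn1 was 3.76 FPKM (exact 95% Poisson interval 3.43 to 4.11) and without it 1.41 FPKM (1.21 to 1.63), from 473 and 178 fragments. Ntn1 was thus 2.67-fold lower (95% Clopper-Pearson interval 2.24 to 3.19) without Dyrk2, the largest difference among the 57 genes by ratio. Its log2 ratio of -1.16 ranked 209 from the bottom of the 14000 genes.

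Sema3g, a secreted class 3 semaphorin that signals mainly through neuropilin-2, was next. Its gene occupies bases 31217860 to 31230352 of chromosome 14 on the plus strand. Sema3g measured 3.98 FPKM (3.58 to 4.41) with Dyrk2 and 1.55 FPKM (1.31 to 1.83) without, a 2.57-fold lower level (2.10 to 3.13). Like Ntn1 it was beyond 2-fold after the addition of 0.5 FPKM, as were 1.89% of all genes and 1.03% of protein-coding genes on that side. No member was beyond 2-fold on the higher side, where 0.857% and 0.38% of those genes were.

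Epha10, an Eph receptor that lacks kinase activity, is at chromosome 4 from 124880899 to 124917800 on the plus strand and was the weakest of the group. It measured 1.39 FPKM (1.21 to 1.60) and 0.63 FPKM (0.51 to 0.77), a 2.21-fold lower level in the knockout library (1.72 to 2.87). Robo2, a Slit receptor, occupies bases 73891839 to 74411825 of chromosome 16 on the minus strand. It measured 4.56 FPKM (4.335 to 4.79) and 2.78 FPKM (2.61 to 2.96), 1.64-fold lower (1.51 to 1.78). None of these 4 genes reached 5 FPKM in either library.

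The 2 higher genes were Eph receptors of both classes. Ephb3, on the plus strand of chromosome 16 from 21204755 to 21223305, measured 11.25 FPKM (10.7 to 11.8) with Dyrk2 and 18.3 FPKM (17.6 to 19.0) without. That is a ratio of 1.63 (1.52 to 1.73), and its log2 ratio ranked 223 from the top of the 14000 genes. Epha7, a receptor of ephrin-A5, lies on the plus strand of chromosome 4 from 28813131 to 28967499. It measured 5.02 FPKM (4.71 to 5.34) and 8.19 FPKM (7.80 to 8.60), also a ratio of 1.63 (1.51 to 1.77).

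**Figure D3:**
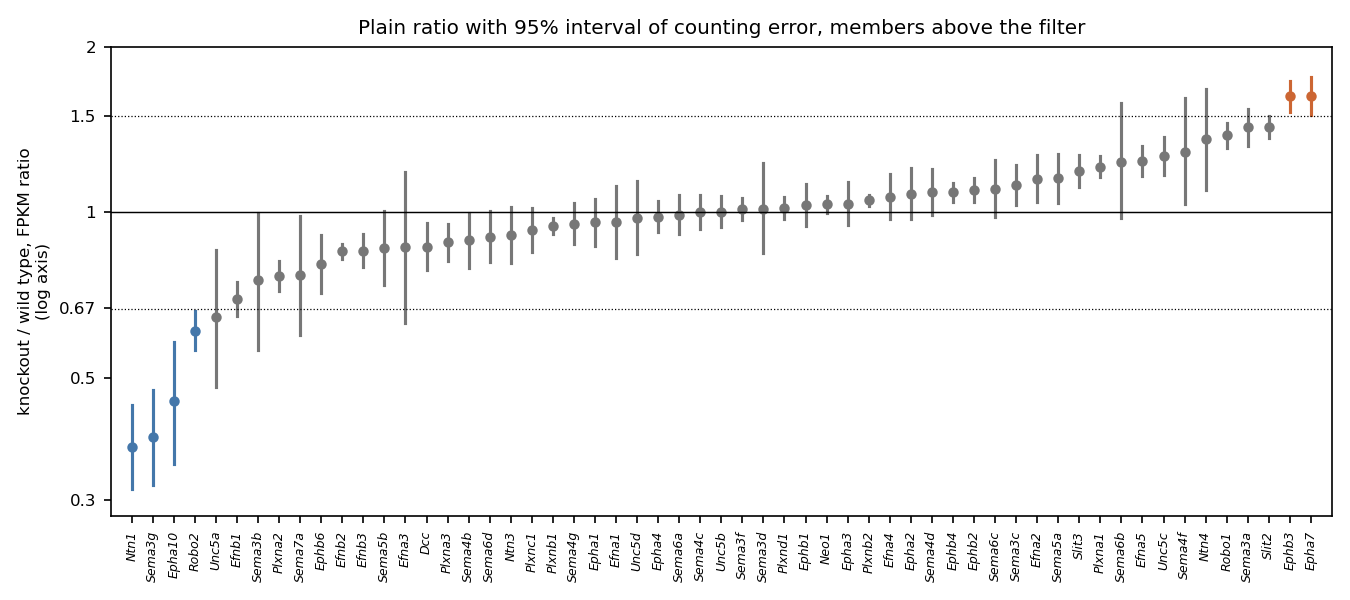
Plain ratio of knockout over wild-type FPKM (log axis) for the 57 guidance genes above the filter, ordered by ratio, with bars for the 95% interval of counting error and dotted lines at 1.5-fold either way. Ntn1, Sema3g, Epha10 and Robo2 (blue) and Ephb3 and Epha7 (orange) are the genes beyond 1.5-fold after 0.5 FPKM was added, and Unc5a, whose plain ratio lies beyond the lower line, is within it after that addition.

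The bases before the start of these genes are shown because the genes that stand out on either side can be set beside each other there. RefSeq promoter sequences of GRCm38.p6 matched 56 of the 66 members, and the start nearest to the annotated 5' end was used. Of the genes beyond 1.5-fold, Sema3g and Robo2 are given for the lower side and Epha7 and Ephb3 for the higher. They run 5' to 3' on the gene's strand, up to the annotated start of the gene. Ntn1 had no promoter entry, and the window of Epha10 lay wholly inside its annotated gene, so neither is shown. Capitals mark the GC box, GGGCGG or its reverse complement CCGCCC, the site bound by Sp1-type factors. RefSeq lists 3 starts for Robo2 and 2 for Epha7, so these windows cover 1 of several promoters. Windows are chr14:31217623-31217859 (plus strand) for Sema3g, chr16:74411826-74412075 (minus) for Robo2, chr4:28812881-28813130 (plus) for Epha7 and chr16:21204545-21204754 (plus) for Ephb3.
Sema3g: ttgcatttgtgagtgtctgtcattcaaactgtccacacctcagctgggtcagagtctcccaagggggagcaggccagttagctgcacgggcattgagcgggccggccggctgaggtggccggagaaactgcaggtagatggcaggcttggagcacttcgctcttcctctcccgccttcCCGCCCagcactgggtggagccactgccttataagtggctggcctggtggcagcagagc
Robo2: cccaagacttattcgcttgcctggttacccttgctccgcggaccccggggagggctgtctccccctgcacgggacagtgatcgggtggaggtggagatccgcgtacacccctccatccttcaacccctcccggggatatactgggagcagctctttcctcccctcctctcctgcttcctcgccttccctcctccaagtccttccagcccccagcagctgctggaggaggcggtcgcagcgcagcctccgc
Epha7: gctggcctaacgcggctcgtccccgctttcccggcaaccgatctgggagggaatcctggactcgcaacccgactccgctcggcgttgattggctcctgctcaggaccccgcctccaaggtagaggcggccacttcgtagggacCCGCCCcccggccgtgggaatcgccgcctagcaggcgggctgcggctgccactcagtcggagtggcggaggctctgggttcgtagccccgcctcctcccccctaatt
Ephb3: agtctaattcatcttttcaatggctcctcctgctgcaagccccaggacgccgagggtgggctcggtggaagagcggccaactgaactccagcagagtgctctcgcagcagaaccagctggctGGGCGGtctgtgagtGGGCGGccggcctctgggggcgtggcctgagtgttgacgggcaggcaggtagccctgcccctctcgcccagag
The GC box occurred once in the windows of Sema3g and Epha7, 2 times in that of Ephb3 and not in that of Robo2. Among the genes shown it was thus present on both sides. Over full windows of 250 bases, 36 of the 49 matched members above the filter held it (73.5%), against 62.3% of 9520 protein-coding genes above the filter. The full windows of some members, Epha10 among them, lie inside the annotated gene. Without the filter it was in 42 of the 56 members (75%) and in 39.4% of all 20542 promoters matched. Those promoters were not limited to protein-coding genes, as the members are, so these shares are not like for like. The TATA box, TATAAA on either strand, was in the windows of Efnb2 and Slit2, 4.08% of those 49 members, against 5.86% of those protein-coding genes. The median GC content of the 49 windows was 66%, against 60.4%.

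Among ligands, the class 3 semaphorins had a single strong member and a single strong difference. Sema3f, which acts through neuropilin-2, measured 32.2 FPKM (31.2 to 33.3) and 32.7 FPKM (31.6 to 33.8), a ratio of 1.01 (0.967 to 1.06). It made up about 64% of the summed class 3 level of 50.7 FPKM with Dyrk2 and 51.3 FPKM without. Sema3c, needed for the outflow tract of the heart, measured 7.68 and 8.61 FPKM. Sema3a, the classical axon repellent acting through neuropilin-1, measured 3.93 FPKM (3.70 to 4.17) and 5.61 FPKM (5.34 to 5.895), 1.43-fold higher in the knockout library (1.32 to 1.54). Sema3a and Sema3g thus lay on opposite sides, at similar wild-type levels. Sema3d stood at 1.32 and 1.34 FPKM and Sema3b at 1.22 and 0.92 FPKM. Sema3e, which binds plexin D1 without a neuropilin, was under the filter at 0.34 and 0.60 FPKM. The neuropilin genes were both slightly lower in the knockout library, Nrp1 at 6.70 and 5.85 FPKM and Nrp2 at 16.6 and 13.7 FPKM.

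The membrane-bound semaphorins of classes 4 to 7 were level as a group, with all 12 members above the filter within 1.5-fold and summed levels of 58.6 and 58.3 FPKM. Sema4c, a ligand of plexin B2, was the strongest at 16.47 and 16.49 FPKM. Sema6a measured 6.68 and 6.62 FPKM, Sema4g 6.15 and 5.87 FPKM, and Sema4d, the ligand of plexin B1, 5.26 and 5.72 FPKM. The furthest from equality were Sema7a, which is held by a lipid anchor and binds plexin C1, at 2.31 and 1.78 FPKM, and Sema4f at 1.38 and 1.78 FPKM. For Sema7a, Sema4b, Sema4f and Sema5a the counting interval excluded 1, the first pair lower in the knockout library and the second higher. Sema4b measured 5.54 and 4.93 FPKM and Sema5a, which carries thrombospondin repeats, 1.83 and 2.11 FPKM. Sema5b, Sema6b, Sema6c and Sema6d lay between 1.60 and 4.97 FPKM in both libraries with intervals that held 1, and Sema4a was under the filter.

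Plexins were the most abundant receptor family, at 192.3 and 196.8 FPKM in sum. Plxnb2, the receptor of class 4 semaphorins that is widespread in epithelia, had the highest level of all 66 members, 85.5 FPKM (84.1 to 87.0) and 90 FPKM (88.5 to 91.5), a ratio of 1.05 (1.03 to 1.08). Plxnb1, its relative, measured 38.7 FPKM (37.9 to 39.6) and 36.6 FPKM (35.7 to 37.4), a ratio of 0.944 (0.914 to 0.976). Plxnd1, the plexin of developing vessels, was level at 25.4 FPKM (24.6 to 26.2) and 25.9 FPKM (25.1 to 26.7), a ratio of 1.02 (0.974 to 1.07). All 7 plexins above the filter lay within 1.5-fold, and the A class parted in direction. Plxna1 measured 21.1 FPKM (20.5 to 21.8) and 25.6 FPKM (24.9 to 26.3), a ratio of 1.21 (1.16 to 1.26). Plxna2 measured 6.81 FPKM (6.54 to 7.09) and 5.22 FPKM (4.98 to 5.47), 1.30-fold lower in the knockout library (1.23 to 1.39). The X-linked Plxna3 was also slightly lower, at 8.71 and 7.68 FPKM, and Plxnc1 measured 5.63 and 5.23 FPKM. Plxna4, at 0.33 and 0.57 FPKM, and Plxnb3, at 0.02 FPKM in both, were under the filter.

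All 3 ephrin-B genes, whose products span the membrane, were lower in the knockout library with intervals that excluded 1. The interval likewise lay below 1 for 22.3% of all genes compared and 23.7% of protein-coding genes. Efnb1, the X-linked ephrin of craniofacial borders, measured 27.3 FPKM (26.1 to 28.6) and 19.0 FPKM (18.0 to 20.1), 1.44-fold lower (1.34 to 1.54). Its log2 ratio of -0.51 lay just inside the 1.5-fold limit, and 5.67% of the 14000 genes had a lower one. The 520 X-linked genes compared had a median log2 ratio of -0.01. Efnb2, the arterial ephrin, measured 59.95 FPKM (58.7 to 61.3) and 51.0 FPKM (49.8 to 52.2), 1.18-fold lower (1.14 to 1.21). Efnb3, known from axons that stop at the midline, measured 28.1 FPKM (26.8 to 29.4) and 24.0 FPKM (22.8 to 25.2), 1.17-fold lower (1.10 to 1.26). Of the 14000 genes, 17.0% had a lower log2 ratio than Efnb2 and 17.5% than Efnb3. The 3 genes summed to 115.4 FPKM with Dyrk2 and 93.9 FPKM without.

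The lipid-anchored ephrin-A genes summed to 77.6 and 86.7 FPKM and none was lower with an interval that excluded 1. Efna5, a repellent of axons in topographic maps, measured 21.5 FPKM (20.5 to 22.5) and 26.6 FPKM (25.5 to 27.8), a ratio of 1.24 (1.16 to 1.32). Efna2 measured 17.75 and 20.5 FPKM, a ratio of 1.15 (1.04 to 1.27). Efna4, the strongest of the class, measured 26.7 FPKM (24.9 to 28.6) and 28.5 FPKM (26.7 to 30.4), a ratio of 1.07 (0.971 to 1.17). Efna1 measured 9.87 and 9.48 FPKM, also with an interval that held 1. Efna3 measured 1.84 and 1.59 FPKM, a ratio of 0.864 close to those of Efnb2 and Efnb3, but from only 90 and 78 fragments (0.629 to 1.18). A difference between the ephrin classes was not tested.

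Eph receptors summed to 129.0 FPKM in the wild-type and 142.8 FPKM in the knockout library. Epha7 and Ephb3 together made up 74.1% of that net difference. In the B class, Ephb4, the venous receptor of ephrin-B2, measured 48.6 FPKM (47.2 to 50.003) and 52.9 FPKM (51.4 to 54.3), a ratio of 1.09 (1.04 to 1.13). Ephb2 measured 11.55 and 12.7 FPKM and Ephb1 7.05 and 7.27 FPKM. Ephb6, which lacks kinase activity as Epha10 does, was 1.24-fold lower in the knockout library (1.10 to 1.40), at 7.89 and 6.36 FPKM. The EphB sum was 86.3 FPKM with Dyrk2 and 97.5 FPKM without, so that summed ephrin-B exceeded summed EphB 1.34-fold in the wild-type library and stood at 0.964 of it in the knockout library. Leaving out Ephb3, the EphB sum was 75.1 and 79.2 FPKM, below the ephrin-B sum in both libraries, so the change of order rested on Ephb3.

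In the A class the strongest receptor was Epha4, which binds ephrins of both classes, at 11.7 and 11.5 FPKM. Epha1 measured 10.6 and 10.15 FPKM, Epha2 7.23 and 7.82 FPKM and Epha3 5.53 and 5.73 FPKM, all with intervals that held 1. Epha7 on the higher side and Epha10 on the lower were thus the members of this class that stood apart. Epha5, at 0.80 and 0.92 FPKM, Epha6, at 0.40 and 0.36 FPKM, and Epha8, with 3 and 1 fragments, were under the filter.

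**Figure D4:**
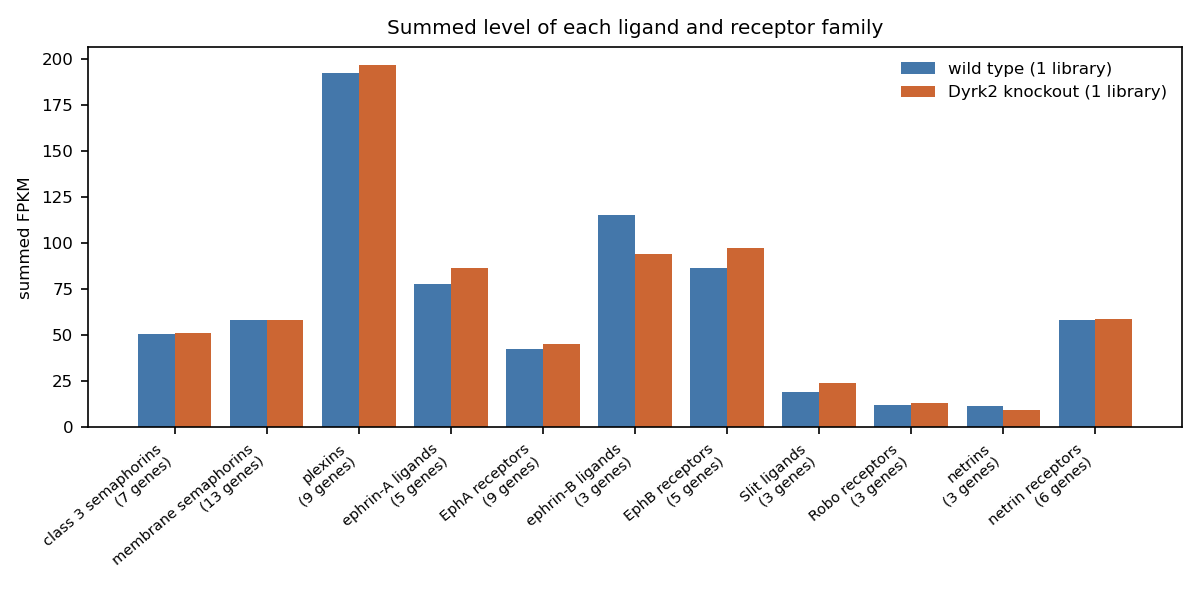
Summed FPKM (vertical axis, from 0) over all members of each family, including those under the filter, in the wild-type and the Dyrk2 knockout library, 1 library each, so no error bars can be given. The ephrin-B bar is above the EphB bar in the wild-type library (115.4 against 86.3 FPKM) and slightly below it in the knockout library (93.9 against 97.5 FPKM). Without Ephb3, EphB would sum to 75.1 and 79.2 FPKM, below ephrin-B in both libraries.

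Slits and Robo1 were higher in the knockout library while Robo2 was lower. Slit2, a ligand for both receptors, measured 5.86 FPKM (5.65 to 6.07) and 8.38 FPKM (8.13 to 8.63), a ratio of 1.43 (1.36 to 1.499). Slit3, which is also active in vessel growth, measured 13.1 FPKM (12.47 to 13.8) and 15.6 FPKM (14.9 to 16.3), a ratio of 1.19 (1.11 to 1.27). Robo1 measured 7.49 FPKM (7.20 to 7.79) and 10.3 FPKM (9.996 to 10.7), a ratio of 1.38 (1.31 to 1.45). The level of Robo1 over that of Robo2 was thus 1.64 in the wild-type and 3.72 in the knockout library. Robo1 and Robo2 are neighbours, with 846 kb between them on chromosome 16. Slit1, at 0.23 and 0.18 FPKM, and Robo3, a receptor of crossing axons, at 0.10 and 0.06 FPKM, were under the filter.

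The netrins had log2 ratios from -1.16 to 0.37 and their receptors from -0.45 to 0.29. Against the lower Ntn1, Ntn3 measured 5.80 and 5.27 FPKM and was the strongest netrin in both libraries. Ntn4, a netrin of basement membranes that binds laminin, was higher in the knockout library, at 2.09 FPKM (1.78 to 2.45) and 2.84 FPKM (2.48 to 3.25), a ratio of 1.36 (1.10 to 1.68). Of the receptors, Neo1, which also binds repulsive guidance molecules, was the strongest at 34.3 FPKM (33.4 to 35.1) and 35.5 FPKM (34.6 to 36.3), a ratio of 1.03 (0.998 to 1.07). Unc5b, the endothelial netrin receptor, measured 14.38 and 14.43 FPKM. Dcc, the attractive receptor of axons, measured 3.38 FPKM (3.16 to 3.61) and 2.93 FPKM (2.73 to 3.14), 1.15-fold lower (1.05 to 1.27). Unc5c was higher in the knockout library, at 2.78 and 3.52 FPKM. Unc5a was lower, at 1.52 FPKM (1.27 to 1.81) and 0.98 FPKM (0.78 to 1.21), a 1.55-fold lower plain level (1.17 to 2.08) that lay within 1.5-fold once 0.5 FPKM was added. Unc5d stood at 1.86 and 1.82 FPKM. The receptors summed to 58.2 and 59.1 FPKM.

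Of the listed co-receptors and further ligands of these pathways 1 lay beyond 1.5-fold, and of the intracellular effectors 1. Over all genes compared 4.56% were lower and 2.06% higher by that much, and over protein-coding genes 2.95% and 1.08%. Of 35 listed co-receptors and ligands found in the tables, 27 passed the filter, 26 lay within 1.5-fold and 1 was lower, with a median log2 ratio of -0.09. That gene was Ntng1, a lipid-anchored relative of the netrins, at 2.38 and 0.96 FPKM, 2.48-fold lower (2.06 to 3.001). The most abundant were the integrin subunit Itgb1 at 122.1 and 118.4 FPKM and the heparan sulphate carrier Gpc1 at 52.5 and 51.3 FPKM. Of the neogenin ligands, Rgma measured 8.30 and 7.77 FPKM, with an interval of the ratio that held 1 (0.853 to 1.03). Rgmb measured 4.48 and 3.83 FPKM, 1.17-fold lower in the knockout library (1.05 to 1.31). Of 63 effectors, 60 passed, 59 lay within 1.5-fold and 1 was lower, with a median of 0.03. That gene was Mical2, an actin-oxidising enzyme, at 1.13 and 0.54 FPKM. The actin-severing Cfl1, at 240 and 260.7 FPKM, and the small GTPase genes Cdc42, at 135.3 and 136.0 FPKM, and Rac1, at 74.1 and 75.9 FPKM, were among the highest.

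Markers of the cell types that make up such a dissection differed between the libraries, and which cells carried the guidance transcripts was not measured. Beside the counts that follow, 4.56% of all genes compared were at least 1.5-fold lower and 2.06% higher, or 2.95% and 1.08% of protein-coding genes. Of 9 pericyte and smooth muscle markers above the filter, 4 were at least 1.5-fold lower, and the list summed to 144.7 and 91.2 FPKM. Of 18 mesenchyme and neural crest markers, 7 were lower and 4 higher by that much, with sums of 313.4 and 213.0 FPKM. Tcf21 measured 1.61 FPKM in the wild-type and 0 in the knockout library. Of 9 hormone and secretory genes above the filter, 8 were lower by that much, and Pomc was level at 8.67 and 8.71 FPKM. The 13 listed genes summed to 391.6 and 91.0 FPKM. Scg2, at 188.5 and 33.7 FPKM, and Chga, at 94.9 and 10.8 FPKM, were the highest of them in the wild-type library. Pou1f1 was at 0 in both libraries, and Tshb, under the filter, measured 0.20 FPKM in the wild-type and 0 in the knockout library. All 16 endothelial markers and all 6 glial markers above the filter lay within 1.5-fold. The full lists summed to 168.3 and 186.9 FPKM and to 35.9 and 36.4 FPKM. Of 12 neuronal markers 1 was lower, Nefm. The neuronal list summed to 129.8 FPKM in the wild-type and 115.4 FPKM in the knockout library, while the median of its log2 ratios was 0.28. The part of these differences in the values of the guidance genes was not tested.

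Markers of further tissues were gauged in the same way, beside the same shares of all genes and of protein-coding genes. Pituitary progenitor markers summed to 1033 and 967.9 FPKM, with 12 of 13 within 1.5-fold. Cartilage markers summed to 253.3 and 217.5 FPKM with 1 of 8 lower. Matn1, under the filter, measured 0.10 and 0 FPKM, with an interval of the ratio that held 1. Hypothalamic and infundibular markers had 2 of 9 higher and sums of 125.9 and 118.5 FPKM. Of these 9, 3 had a log2 ratio above 0 and 6 below, with a median of -0.09. Oral and pharyngeal markers had 1 of 6 lower and 1 higher, with sums of 334.6 and 284.4 FPKM. Most of these sums came from Krt8, at 135.5 and 115.5 FPKM, and Krt18, at 191.0 and 160.7 FPKM. Of the 6, 3 had a log2 ratio above 0 and 3 below, with a median of -0.03. Nkx2-3, under the filter, measured 0.02 and 0 FPKM, with an interval of the ratio that held 1. Erythroid markers summed to 2351 and 1805 FPKM with all 8 within 1.5-fold, and macrophage markers to 31.7 and 29.6 FPKM with 1 of 7 lower.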

How the data were processed

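PolyA-selected, strand-aware libraries of total RNA were made from pituitaries at E12.5, per the labels' protocols. The authors deposited FPKM to 2 decimals with the exon length of each gene, per the file headers. The submitters' processing notes name Cutadapt 1.9.1, HISAT2 2.0.1 and the build GRCm38. The sources used here do not give the counting tool, its use of strand or the annotation. GENCODE M21, which annotates GRCm38, supplied symbols and coordinates. Of 55401 identifiers 55141 matched, and all 66 members had its exon length. The rule also met 3 antisense Plxna4os genes, which are not protein-coding and were left out.

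Multiplied by exon length and a library total, FPKM gives back fragments. Totals of about 20045000 (wild type) and 20116000 (knockout) gave whole numbers, within 0.1 fragment, for all 1512 and 1372 short-gene values of up to 100 fragments. Rounding leaves the fragments of the longest member uncertain by 2.6. From these fragments came exact 95% Poisson intervals of levels and exact 95% Clopper-Pearson intervals of ratios, computed with Python 3.11.15 and scipy 1.17.1. No count model was run, since there is 1 library per genotype. Values were used as scaled by the authors.

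The families and lists were chosen with earlier results of these data known, although the rule for members reads symbols alone. Every member may be named, and intervals are given for those beyond 1.5-fold, for the 10 most abundant and for some others whose interval excludes 1. Of co-receptors and effectors, genes at least 1.5-fold apart and some of the most abundant are named, and Nrp1, Nrp2, Rgma and Rgmb were added as partners of members. Marker lists are given mainly by counts and sums. Named from them are genes at 0, Nefm, Krt8, Krt18, Scg2, Chga and Pomc, and near the start Pitx1 and Lhx3. The listed symbol Hjv had no match. The promoter motifs were chosen after the values were seen. The recovery of library totals, the calls by log2 ratio and the intervals of ratios were checked with simulated data, and the other steps were not.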

Additional observations from a re-analysis of the deposited data

How the results depend on the processing

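No paired analysis was possible because each genotype has only 1 library. The counts of 2 higher and 4 lower members depended on how weak genes were treated. With 2 FPKM added in place of 0.5 FPKM, 1 was higher (Ephb3) and 2 were lower (Ntn1 and Sema3g). With a filter of 5 FPKM, 38 members were compared and 0 were lower, since none of the 4 reached that level, while Epha7 and Ephb3 remained higher. At a threshold of 2-fold, 0 were higher and 2 lower, again Ntn1 and Sema3g. With 0.1 FPKM added, 5 were lower, Unc5a being added. Without a filter, with trimmed-mean (TMM) or upper-quartile scaling (which multiplied the knockout library by 1.011 and 1.009), and when the interval also had to exclude 1, the same 6 genes were counted. Over every pseudocount, filter and scaling in which they were compared, the log2 ratio of Ntn1 ran from -1.35 to -0.76. That of Sema3g ran from -1.31 to -0.75 and that of Epha10 from -1.03 to -0.37. Their sign is no check, since adding the same value to both libraries, or filtering, cannot change it. The scalings were too close to 1 to do so. The members' median log2 ratio lay between 0.00085 and 0.035 under every pseudocount, filter and scaling run. Depth limits weak members, both under the filter, such as Plxnb3 with 3 fragments in each library, and above it, where the ratio of Efna3 has an interval of 0.629 to 1.18 and the fold of Epha10 1.72 to 2.87.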

Other observations

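Several members are neighbours in the genome yet stood at different levels. Efna1, Efna3 and Efna4 lie on the minus strand of chromosome 3 with 32.8 kb and 10.4 kb between them, and in the wild-type library measured 9.87, 1.84 and 26.7 FPKM. Sema3b and Sema3f, 72.3 kb apart on chromosome 9, measured 1.22 and 32.2 FPKM. Sema3d, Sema3a and Sema3e follow each other on the plus strand of chromosome 5 at gaps of 536 kb and 423 kb, with 1.32, 3.93 and 0.34 FPKM. Ephb2 and Epha8, 93.4 kb apart on chromosome 4, measured 11.55 and 0.03 FPKM.

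The sources used here do not say whether the counting used strand, so members whose exons overlap a gene on the other strand are less certain. More than 5% of exon length was overlapped in 5 members. These were Efna3 at 14.1%, Plxna1 at 10.7%, Efna4 at 10.5%, Sema4c at 7.27% and Epha1 at 6.01%, the last by Zyx, which measured 20.35 and 20.5 FPKM. Among the 6 genes beyond 1.5-fold, Epha10 had an overlap of 1.10% with an antisense gene listed at 0 in both libraries, and the other 5 had none.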
